A study of Homo sapiens with 12 samples.

Results

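Among the genes measured in the human erythroid line HUDEP-2, 44 were read at low or zero counts in control cells and at higher counts in cells labelled MBD2-/-. The members were chosen by these measured values: a gene's counts summed to at least 100 over the 6 knockout libraries, and its summed CPM (counts per 1e6 counts of the library) was at least 8 times that of the 6 control libraries. The table held 60483 genes, of which 14182 had at least 100 knockout counts. Both thresholds were met by 62 genes, and 18 of them were left out because they lay on chromosomes 18, X, Y or M, had symbols starting with HB, LINC or SNORD, or were on a short list of excluded genes. The knockout-to-control difference chose the members, so their values in that comparison are a description and carry no test. The same thresholds in the opposite direction, with the same exclusions, were met by 21 genes.

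RNA sequencing was done on 4 groups of 3 libraries: MBD2-/- cells after and before erythroid differentiation, and cells with a scrambled guide RNA (sgSCR, genotype given as WT) after and before it. HUDEP-2 is a cord blood progenitor line, immortalized and kept growing with doxycycline. Cells after differentiation were labelled late basophilic erythroblasts and had been in IMDM with human AB serum, erythropoietin, doxycycline, insulin, heparin and holo-transferrin. Cells before it were labelled early basophilic erythroblasts and had been in SFEM with stem cell factor, erythropoietin, dexamethasone and doxycycline, so medium and stage cannot be told apart. The labels give the length of differentiation as 3 days in one place and 5 days in another. They do not say whether replicates came from separate cultures, so the spread behind each p-value may be technical. They also do not say whether the knockout line was 1 clone, so a property of a clone and the loss of MBD2 cannot be told apart.

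MBD2 encodes a protein that binds methylated CpG dinucleotides and brings the NuRD complex, which carries histone deacetylases and a chromatin remodeler, to DNA. It is known in erythroid cells for keeping the fetal globin genes low in adult-type cells, and more generally for repression at methylated promoters. Genes that are normally used in other tissues are often silent in blood cells with methylated or otherwise closed promoters.

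MBD2 itself was lower in every knockout library. It measured 14.8, 14.7 and 13.6 CPM in knockout cells and 62.8, 59.3 and 58.5 CPM in control cells after differentiation, and 23.0, 20.6 and 25.4 CPM in knockout cells and 80.4, 81.7 and 80.4 CPM in control cells before it. The log2 fold change, knockout over control, was -1.91 ± 0.09 (SE, n = 3 each) after and -1.79 ± 0.08 before (edgeR, Benjamini-Hochberg adjusted p = 5.68e-11 and 1.06e-10). Library totals lay between 7667997 and 14047498 counts. Counts assigned to ribosomal RNA genes made up 1.68% to 2.74% of knockout libraries and 0.562% to 1.05% of control libraries after differentiation, and 0.842% to 1.29% of knockout and 0.394% to 1.08% of control libraries before it. The part of that difference in the members' values was not tested. The 16 tested erythroblast markers summed to 20868 to 31149 CPM in knockout and 12173 to 15154 CPM in control libraries after differentiation. Before it they summed to 10224 to 16158 CPM in knockout and 9846 to 14712 CPM in control libraries, and the groups overlapped. These sums include HBB, HBA1 and HBA2. The libraries were made with a Ribo-Zero Globin kit, so globin RNA left over from depletion is part of the sums. Of the 16, 15 were called higher in knockout cells after and 11 before, and 0 lower at either stage, where 16.8% and 9.07% of all tested genes were called higher.

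For 28 members RefSeq gave a promoter window of 300 bases, 250 of them upstream of the start (GRCh38.p14). The upstream parts of 6 members are given as examples, some with many CpG and some with few. They are written 5′ to 3′ on the gene's strand, with each CpG in capitals. PAQR9 (chr3:142963675-142963924, minus strand), IRAK2 (chr3:10164669-10164918, plus strand) and VENTX (chr10:133237605-133237854, plus strand) held 33, 24 and 19 CpG. ARG1 (chr6:131572976-131573225, plus strand), ZNF648 (chr1:182061713-182061962, minus strand) and RNF182 (chr6:13924196-13924445, plus strand) held 1, 1 and 5.
PAQR9: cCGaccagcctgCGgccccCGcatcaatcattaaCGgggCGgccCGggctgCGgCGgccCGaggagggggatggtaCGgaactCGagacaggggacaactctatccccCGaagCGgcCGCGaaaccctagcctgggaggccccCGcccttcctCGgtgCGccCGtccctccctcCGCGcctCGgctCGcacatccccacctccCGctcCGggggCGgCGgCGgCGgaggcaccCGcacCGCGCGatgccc
IRAK2: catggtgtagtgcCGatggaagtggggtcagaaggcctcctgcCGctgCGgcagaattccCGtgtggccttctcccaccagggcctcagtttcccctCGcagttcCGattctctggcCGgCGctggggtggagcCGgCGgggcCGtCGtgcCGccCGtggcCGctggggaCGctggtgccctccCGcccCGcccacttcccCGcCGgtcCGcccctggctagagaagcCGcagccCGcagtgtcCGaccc
VENTX: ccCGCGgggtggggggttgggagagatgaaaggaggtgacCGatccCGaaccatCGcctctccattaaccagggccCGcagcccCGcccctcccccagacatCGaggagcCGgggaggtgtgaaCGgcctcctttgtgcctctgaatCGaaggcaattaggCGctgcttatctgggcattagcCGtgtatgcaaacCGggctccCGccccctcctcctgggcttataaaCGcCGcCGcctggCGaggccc
ARG1: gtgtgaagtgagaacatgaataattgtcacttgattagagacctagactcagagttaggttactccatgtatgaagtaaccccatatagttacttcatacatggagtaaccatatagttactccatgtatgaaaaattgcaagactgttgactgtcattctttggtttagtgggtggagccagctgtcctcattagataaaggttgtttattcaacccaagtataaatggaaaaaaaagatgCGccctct
ZNF648: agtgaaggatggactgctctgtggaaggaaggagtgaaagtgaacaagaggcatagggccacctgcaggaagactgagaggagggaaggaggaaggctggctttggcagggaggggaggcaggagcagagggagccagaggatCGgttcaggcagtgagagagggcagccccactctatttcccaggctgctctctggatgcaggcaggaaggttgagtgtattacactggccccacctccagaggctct
RNF182: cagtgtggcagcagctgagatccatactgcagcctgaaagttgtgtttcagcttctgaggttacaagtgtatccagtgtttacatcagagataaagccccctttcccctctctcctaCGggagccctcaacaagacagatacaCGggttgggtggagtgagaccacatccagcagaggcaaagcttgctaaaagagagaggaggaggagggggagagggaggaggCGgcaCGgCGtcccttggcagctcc

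Those 3 CpG-rich and 3 CpG-poor promoters belonged to genes that were all over 8 times higher in summed CPM in knockout than in control cells, as the choice of members required. Their ratios were unlike, from 10.9 in ARG1 to 98.6 in RNF182. Over the 28 windows, CpG observed over expected (the CpG count times the window length, divided by the product of the C and G counts) had a median of 0.61. It was 0.85 over the 8347 windows of all genes with the same count minimum, and 0.58 over all 35116 RefSeq windows. The ratio was above 0.6 in 14 of the 28 windows (50.0%), in 85.8% of those of genes with the count minimum and in 48.8% of all windows. It was highest in TSPAN5 at 1.15 and lowest in PURPL, whose window held no CpG. The median G and C content was 65.5% in members' windows and 65.3% in windows of genes with the count minimum. The windows of PAQR9 and PAQR9-AS1 overlap, and both are among the 14. Over all members the median knockout level was 4.52 CPM, against 21.1 CPM for genes with the count minimum. The part of level in these CpG shares was not tested.

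**Figure D1:**
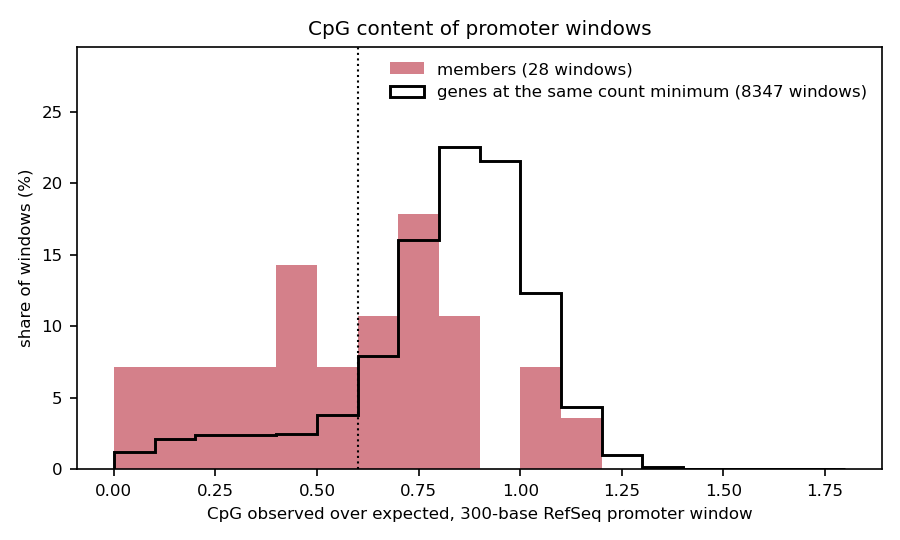
Share of promoter windows (y axis, percent) by CpG observed over expected in the 300-base RefSeq window (x axis), for the 28 members with a window (filled) and for 8347 genes with the same count minimum (line). The dotted line marks 0.6; 50.0% of the members' windows and 85.8% of the others lie above it.

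A few short motifs were counted on both strands of the windows. AGATAA, a form of the site that GATA factors bind, was in 8 of 28 members' windows (28.6%), in 4.66% of windows of genes with the count minimum and in 10.3% of all windows. The 8 were VENTX, EPHA3, SH3BGRL2, C14orf180, RNF182, EML1, ARG1 and PURPL. TGATAA was in 0 of 28, against 3.46% and 7.53%. GGGCGG, the core of GC boxes, was in 17 windows (60.7%, against 71.1% and 45.0%), and CGGAAG, the core of ETS sites, in 3 (10.7%, against 36.4% and 19.5%). CACCC was in 67.9% of members' windows, CANNTG in 64.3% and TGACGTCA in 3.57%, beside 62.0%, 59.8% and 3.55% of windows of genes with the count minimum. These counts describe letters in the windows and not binding, and the part of the members' lower level in them was not tested. Windows without AGATAA or TGATAA say nothing of GATA factors elsewhere in the gene. In 26 of the 28 the RefSeq start lay within 1000 bases of the start of the counted gene, the exceptions being LRRK2 and PAQR9-AS1.

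By type, 36 of the 44 genes were protein-coding (81.8%, against 76.5% of all genes with the count minimum), 4 were lincRNAs, and the others were an antisense RNA, a sense-overlapping RNA and a pair of pseudogenes. They lay on many chromosomes, most on chromosome 3 with 7 and chromosome 5 with 6. These were 0.876% and 0.912% of the genes there with the count minimum that were not left out. The share was highest on chromosome 21, at 1.13% with 2 members. By symbol, 1 of the 44 was a ZNF gene (2.27%, against 2.93% of all genes with the count minimum) and 1 an SLC gene (2.27%, against 1.43%).

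The members were low in level even in knockout cells. Their knockout mean lay between 1.495 and 30.0 CPM with a median of 4.52 CPM, where the median of all genes with the count minimum was 21.1 CPM. Per kilobase of exon, the median member reached 1.07 RPKM in knockout cells and 0.0858 RPKM in control cells, against 5.69 and 5.96 RPKM over all 13254 genes with the count minimum that were not left out. Together they summed to 391, 405 and 439 CPM in knockout and 31.2, 31.8 and 29.3 CPM in control libraries after differentiation. Before it they summed to 234, 241 and 230 CPM in knockout and 17.1, 18.2 and 15.3 CPM in control libraries. No member had 0 counts in any knockout library, while 3 to 4 of the 44 were at 0 in each control library after and 11 to 14 in each before differentiation.

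The name near silent fitted 39 of the 44, whose control mean was under 1 CPM. The other 5 were above that, among them ARG1 at 2.40 CPM, RYR2 at 2.21 CPM, SH3BGRL2 at 1.29 CPM and SYBU at 1.22 CPM, low but readily detected. At the threshold, ALCAM and AC008568.1 were just inside with ratios of 8.09 and 8.34, and TDH, C17orf99 and ADAMTS19 just outside with 7.98, 7.94 and 7.87. At the count minimum, LRRK2 was just inside with 102 knockout counts and the unnamed ENSG00000280065.1 just outside with 95.

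Knockout and control libraries did not overlap for 44 of 44 members before differentiation, where 14.1% of all genes with the count minimum had every knockout library above every control library. After it they did not overlap for 42 of 44, against 16%, the exceptions being C6orf141 and AC008568.1. All 6 knockout libraries lay above all 6 control libraries for 36 members, against 2.57%. The mean was at least 8 times that of control for 31 members after (0.309% of all such genes) and for 37 before (0.475%), and for 24 at both stages, 7 after only and 13 before only. These counts follow from the choice of members and are given to show which stage carried it.

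**Figure D2:**
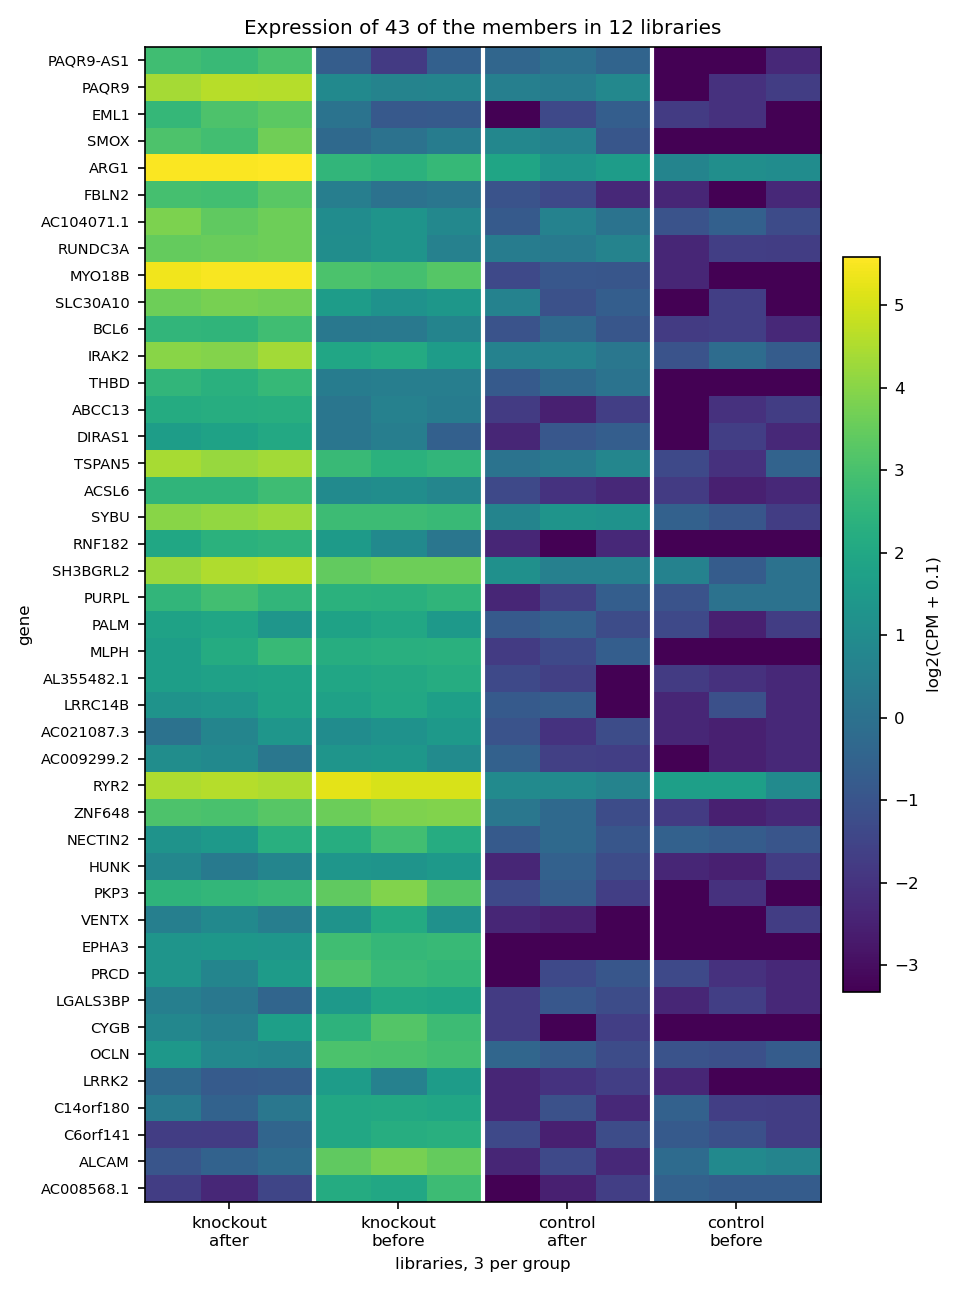
Level of 43 of the 44 genes (rows) in each of the 12 libraries (columns), as log2(CPM + 0.1), with genes ordered by the share of their knockout level that came from cells after differentiation. Knockout libraries on the left are brighter than control libraries on the right in nearly every row, and the top and bottom rows differ in the stage at which they are bright.

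The genes with the largest ratios included a receptor, a muscle protein and an epithelial protein that are best known from other tissues. EPHA3, an Eph receptor tyrosine kinase that binds ephrins on neighbouring cells (ENSG00000044524.9, chromosome 3, 89107524 to 89482134, plus strand, hg38), had 0 counts in all 6 control libraries. It measured 2.37, 2.55 and 2.48 CPM in knockout cells after and 7.17, 5.98 and 6.29 CPM before differentiation. Against a floor of 3 counts over the 6 control libraries it was 107-fold higher in knockout cells. The exact 95% lower limit of its ratio of pooled counts was 86.8.

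MYO18B, an unconventional myosin of striated muscle (ENSG00000133454.14, chromosome 22, 25742144 to 26031041, plus strand), measured 42.1, 44.6 and 44.9 CPM in knockout and 0.288, 0.438 and 0.423 CPM in control cells after differentiation. Before it the values were 8.27, 7.75 and 9.39 CPM in knockout cells and 0.0958, 0 and 0 CPM in control cells. Its ratio of summed CPM was 126, and it was one of the most abundant members after differentiation. RYR2, the calcium release channel of heart muscle, was the other muscle gene, at 22.6, 24.0 and 22.3 CPM in knockout and 1.82, 1.82 and 1.48 CPM in control cells after, and 37.2, 32.7 and 32.9 CPM in knockout and 3.16, 3.13 and 1.83 CPM in control cells before. Of 10 other tested genes on a striated muscle list, 1 was called higher after and before and 0 lower, where 16.8% and 9.07% of all tested genes were called higher. That gene was the atrial myosin light chain MYL4, with log2 fold changes of 1.87 and 0.97.

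RNF182, a ubiquitin ligase described in brain, measured 3.82, 5.00 and 5.48 CPM in knockout cells after and 2.78, 1.77 and 1.03 CPM before differentiation. The control libraries held 2 counts in all, both after differentiation, so the ratio of pooled counts was 107 with an exact 95% interval of 29.3 to 893. CYGB, cytoglobin, a globin of many tissues that binds oxygen, measured 1.65, 1.37 and 3.13 CPM in knockout cells after and 5.34, 9.06 and 6.85 CPM before, with 4 and 0 counts over the control libraries. Its ratio of summed CPM was 68.0. VENTX, a homeobox factor described in blood cells, measured 1.34, 1.77 and 1.30 CPM after and 2.27, 4.30 and 2.16 CPM before in knockout cells, beside 2 control counts at each stage. Such ratios rest on very few control counts, and counting error alone is wide.

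PKP3, plakophilin 3 of desmosomes, was the epithelial gene with the largest ratio, 45.2. It measured 5.47, 5.79 and 6.39 CPM in knockout and 0.288, 0.511 and 0.212 CPM in control cells after, and 10.5, 14.8 and 9.11 CPM in knockout and 0, 0.142 and 0 CPM in control cells before. OCLN, occludin of tight junctions, the adhesion receptors NECTIN2 and ALCAM, and MLPH, which links melanosomes to a myosin, had ratios of 10.7, 8.43, 8.09 and 27.8. A list of 17 other tested epithelial junction genes and factors held 4 called higher and 3 lower after, and 5 higher and 1 lower before. Of all tested genes 16.8% were called higher and 16.3% lower after, and 9.07% and 8.15% before. With library sizes in place of TMM factors, 3 of the listed genes were higher and 5 lower after.

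**Figure D3:**
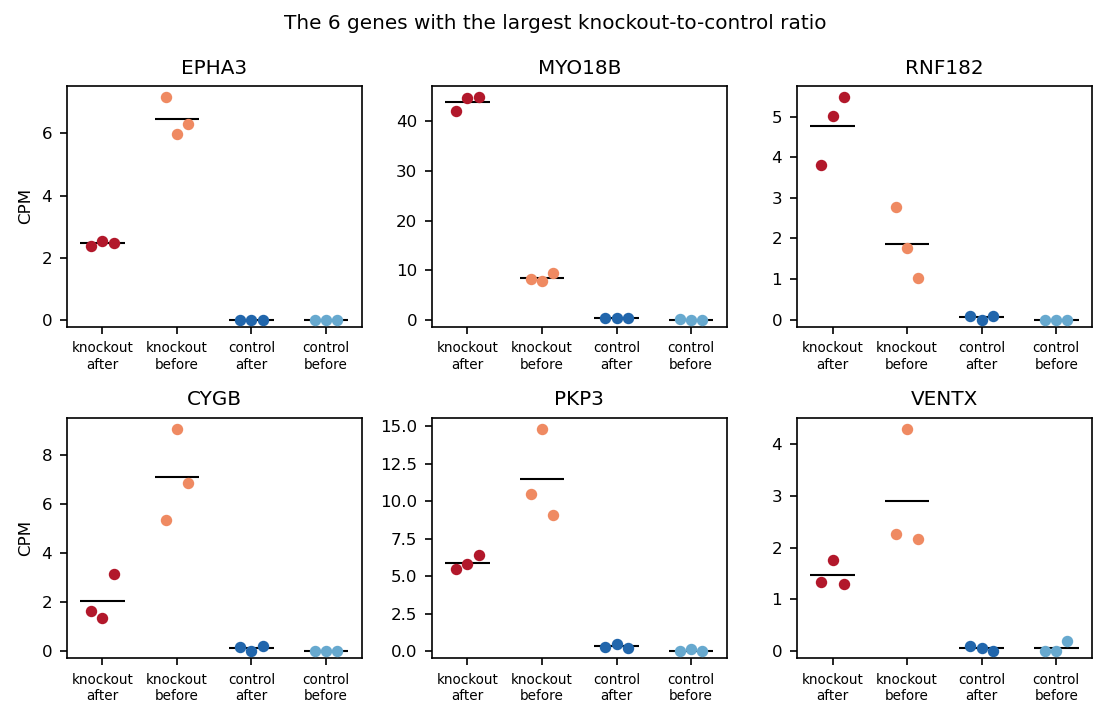
CPM in each library (points) and group mean (lines) for the 6 genes with the largest ratio of knockout to control, each on its own linear axis. Control libraries lie at or near 0, EPHA3 at exactly 0, and MYO18B and RNF182 are higher in knockout cells after than before differentiation while EPHA3, CYGB, PKP3 and VENTX are lower.

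Among the protein-coding members with a high level per length was a red cell enzyme. ARG1, arginase, the last enzyme of the urea cycle and present in human red cells, reached a mean of 13.3 RPKM in knockout and 1.22 RPKM in control cells. It measured 45.8, 46.5 and 47.9 CPM in knockout and 3.64, 2.33 and 2.96 CPM in control cells after, and 5.78, 5.23 and 6.10 CPM in knockout and 1.53, 1.99 and 1.93 CPM in control cells before. The ratio was 15.7 after and 3.13 before, so ARG1 was a member through its level after differentiation.

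SH3BGRL2, a small protein related to thioredoxins, measured 18.9, 22.7 and 24.4 CPM in knockout and 2.11, 1.39 and 1.38 CPM in control cells after, and 10.8, 12.2 and 12.3 CPM in knockout and 1.44, 0.498 and 0.915 CPM in control cells before. IRAK2, a kinase of Toll-like and interleukin-1 receptor signalling, measured 16.1, 15.2 and 20.3 CPM in knockout and 1.44, 1.46 and 1.06 CPM in control cells after, and 3.80, 4.30 and 2.91 CPM in knockout and 0.383, 0.783 and 0.508 CPM in control cells before. Both were higher in knockout cells at each stage without overlap. ZNF648, a zinc finger protein, was higher before than after differentiation in knockout cells, with 8.36, 8.14 and 9.52 CPM after and 11.9, 14.4 and 14.9 CPM before, beside 1.05, 0.730 and 0.317 CPM after and 0.192, 0.0712 and 0.102 CPM before in control cells. Another transcription factor, BCL6, a repressor best known from germinal centre B cells, measured 5.78, 5.59 and 7.17 CPM in knockout and 0.383, 0.730 and 0.423 CPM in control cells after.

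PAQR9, a membrane receptor of the progestin and adipoQ family, measured 20.7, 24.5 and 24.3 CPM in knockout and 1.34, 1.24 and 1.69 CPM in control cells after, and 1.76, 1.49 and 1.502 CPM in knockout and 0, 0.142 and 0.203 CPM in control cells before. SMOX, spermine oxidase, which turns spermine into spermidine, measured 8.46, 7.26 and 12.4 CPM in knockout and 1.63, 1.46 and 0.423 CPM in control cells after, and 0.731, 0.934 and 1.22 CPM in knockout cells before, where the 3 control libraries held 0 counts. In both, control cells after differentiation were about as high as knockout cells before it, so the groups overlapped across stages though not within one. RUNDC3A, an adaptor protein best known from neurons, showed the same, at 10.9, 11.6 and 12.1 CPM in knockout and 1.246, 1.17 and 1.48 CPM in control cells after, and 1.97, 2.33 and 1.41 CPM in knockout and 0.0958, 0.214 and 0.203 CPM in control cells before.

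RUNDC3A and PAQR9 stood on a list of late erythroid maturation genes. Of 59 other tested genes of that list, 56 were called higher and 2 lower in knockout cells after differentiation, and 44 higher and 3 lower before it, beside 16.8% and 9.07% of all tested genes called higher (edgeR, adjusted p under 0.05). The summed level of the list was 27526 to 30180 CPM in knockout and 15956 to 16281 CPM in control libraries after, and 14627 to 15061 CPM in knockout and 12478 to 13372 CPM in control libraries before. The sums include the members on the list. The list was chosen with earlier results of these data known, so its counts are a description. Knockout libraries carried more RNA of the listed genes at each labelled stage, and its part in the values of these members was not tested. In bulk RNA, more cells of a kind and more RNA per cell cannot be told apart.

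Of the markers on the chosen lists of other cell types, none was a member. The lists were chosen with earlier results of these data known, and markers absent from them were not read. Among all tested genes 16.8% were called higher and 16.3% lower after differentiation, and 9.07% and 8.15% before it. Of 10 tested neutrophil and monocyte markers 2 were called higher and 1 lower after differentiation, with summed levels of 20.8 to 24.9 CPM in knockout and 14.5 to 21.2 CPM in control libraries. Before it 6 were higher and 1 lower, at 98.1 to 113 CPM in knockout and 53.4 to 58.4 CPM in control libraries, and DEFA4 was at 0 throughout. Mast cell and basophil markers had 8 of 10 lower and 0 higher after, and 5 lower and 1 higher before, at 397 to 435 CPM in knockout and 804 to 839 CPM in control libraries after. Tested megakaryocyte markers had 2 of 5 higher and 2 lower after, and 3 higher and 1 lower before, at 66.0 to 73.7 CPM in knockout and 36.7 to 40.4 CPM in control libraries after, with GP1BB and PPBP at 0. Stromal and endothelial markers had 2 of 5 higher and 1 lower after, and 1 of each before, at 103 to 112 CPM in knockout and 224 to 243 CPM in control libraries before. The only tested lymphoid marker, CD247, was called higher before, and CD3E and TCL1A were at 0. Their part in the members' values was not tested.

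Of 16 NuRD subunits, counting MBD2 itself, 6 were lower and 0 higher after differentiation, MBD2 and MTA3 (log2 fold change -1.405 ± 0.19) by the most. Before it MBD2 alone was lower, with CDK2AP1 higher. Beside the lists here, 16.8% of all tested genes were called higher and 16.3% lower after, and 9.07% and 8.15% before. Of 19 genes that write, read or erase DNA methylation, 6 were higher and 3 lower after, and 5 higher and 2 lower before. With library sizes only, 8 NuRD subunits were lower and 0 higher after, and of the methylation genes 4 were higher and 4 lower. Of 11 tested germline genes, 4 were higher and 0 lower after, and 1 higher and 2 lower before, and none was a member. With library sizes only, 2 germline genes were higher and 0 lower after. Of 12 tested neuronal and synaptic genes, 3 were higher and 3 lower after, and 5 higher and 0 lower before; with library sizes only, 2 were higher and 4 lower after.

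The choice of members summed both stages and did not compare them. A high level at one stage could carry it, as it did for the 13 members past 8-fold before only and the 7 after only, so the stage changes below and their differences between knockout and control are not independent of the choice and their counts are a description. In knockout cells, after against before, 21 of the 44 were called higher, 13 lower and 10 neither. Among all 17175 tested genes 28% were called higher and 27.7% lower, 55.7% in all (edgeR quasi-likelihood test, adjusted p under 0.05). The median size of the log2 change was 1.84 among members and 0.46 among all tested genes, and it was above 1 in 31 members and in 20.01% of all genes. The members' level is lower than that of most tested genes, and its part in the size of these changes was not tested. All 44 passed the low-count filter. For 6 of them, ALCAM, AC008568.1, C6orf141, LRRK2, EML1 and PAQR9-AS1, every library of one knockout stage was under its level, so that a difference was built in for these and their changes are given as values with no test. They make up 2 of the 21 called higher and 4 of the 13 called lower, and without them 19 of 38 were called higher and 9 lower.

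With library sizes in place of TMM factors, 21 members were called higher and 16 lower, and over all genes 3427 higher and 6337 lower in place of 4807 and 4756. The median change of all genes was then -0.16 in place of 0.03, so small changes depend on the scaling. Without the 13 members whose exons share bases with another gene, 12 of 31 were called higher.

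**Figure D4:**
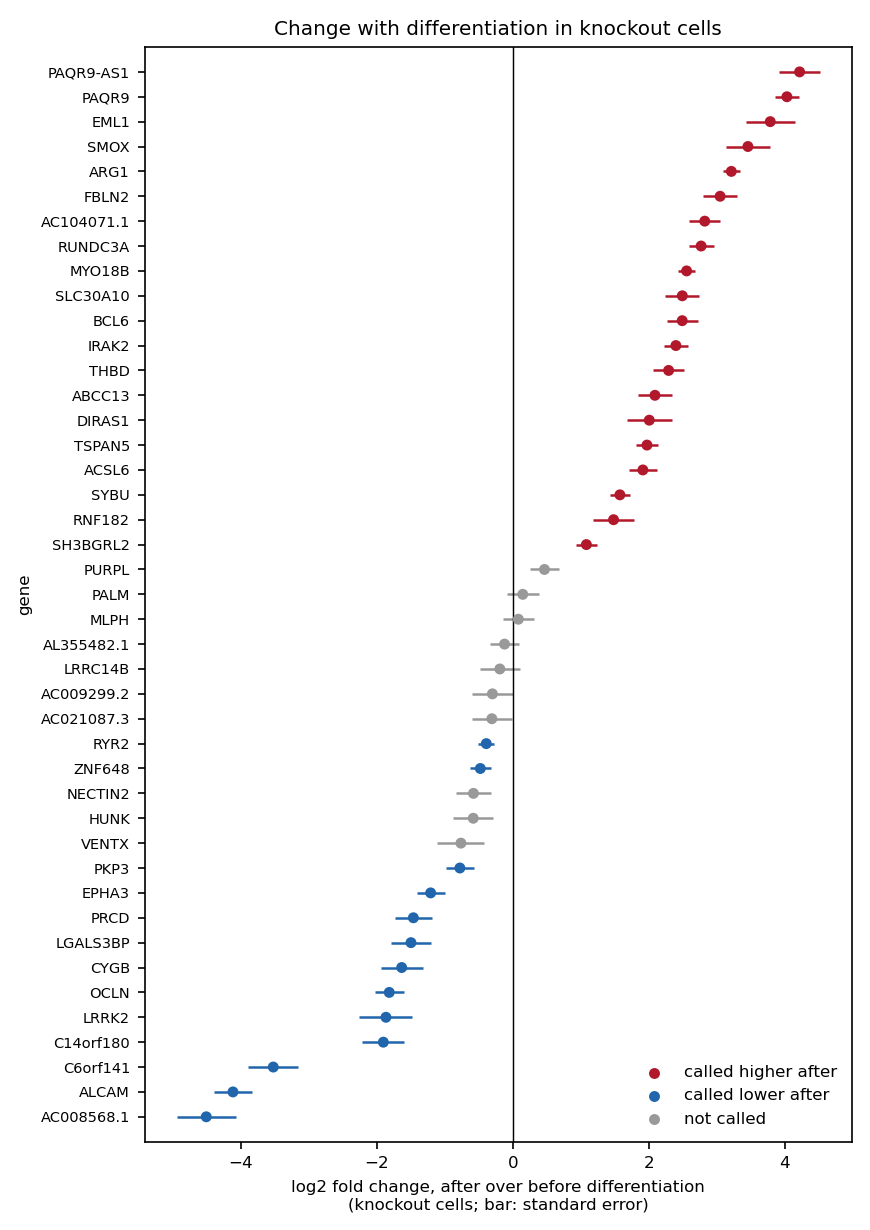
Log2 fold change after over before differentiation in knockout cells (x axis) for 43 of the 44 genes (y axis), with its standard error from 3 libraries a stage, coloured by the edgeR call at adjusted p under 0.05. The points reach 4.22 in PAQR9-AS1 and -4.51 in AC008568.1, 2 of the 6 genes for which the low-count filter built a difference in, and 10 genes were not called.

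PAQR9, SMOX, ARG1 and FBLN2 were higher after differentiation by more than 3 on the log2 scale. PAQR9 rose by 4.03 ± 0.18 on the log2 scale (SE, n = 3 each; adjusted p = 1.36e-11), ARG1 by 3.21 ± 0.12 (adjusted p = 2.06e-12) and SMOX by 3.46 ± 0.32 (adjusted p = 3.33e-07), with no overlap between stages. EML1, a microtubule-binding protein, measured 5.98, 8.54 and 9.91 CPM after and 0.951, 0.467 and 0.469 CPM before in knockout cells, a log2 change of 3.79. FBLN2, fibulin 2 of the extracellular matrix, measured 7.63, 7.26 and 9.78 CPM after and 1.32, 0.934 and 1.03 CPM before, a change of 3.05 ± 0.24. MYO18B rose by 2.56 ± 0.12.

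Among other members with roles in metabolism and transport, changes went both ways. SLC30A10, a manganese exporter, measured 12.3, 13.5 and 12.8 CPM after and 2.93, 2.24 and 2.53 CPM before, a change of 2.49 ± 0.25. ACSL6, which activates long-chain fatty acids, changed by 1.91 ± 0.21, and ABCC13, a transporter pseudogene in humans, by 2.09 ± 0.25. CYGB changed by -1.64 ± 0.31 and the calcium channel gene RYR2 by -0.39 ± 0.12. Among signalling and membrane proteins, IRAK2 (2.40 ± 0.17), THBD, thrombomodulin (2.29 ± 0.23), TSPAN5, a tetraspanin (1.97 ± 0.16), DIRAS1, a small GTPase (2.01 ± 0.33), and RNF182 (1.48 ± 0.30) rose, while EPHA3 (-1.21 ± 0.20) and PRCD, a protein of photoreceptor discs (-1.46 ± 0.28), fell. The kinase HUNK was at -0.58 ± 0.29 and not called.

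Other members were lower after differentiation in knockout cells. ALCAM, an adhesion receptor of activated leukocytes, measured 0.413, 0.589 and 0.782 CPM after and 10.5, 13.4 and 11.2 CPM before, a log2 change of -4.12. C6orf141, a gene of little known function, measured 0.206, 0.196 and 0.652 CPM after and 3.95, 4.58 and 4.79 CPM before (-3.52). C14orf180, likewise little known, changed by -1.91 ± 0.31. LRRK2, a large kinase and GTPase linked to Parkinson disease, measured 0.722, 0.491 and 0.522 CPM after and 2.93, 1.401 and 2.91 CPM before (-1.87). OCLN measured 2.58, 1.67 and 1.56 CPM after and 8.34, 8.03 and 7.23 CPM before (-1.82 ± 0.22), with LGALS3BP, a secreted glycoprotein, at -1.50 ± 0.29 and PKP3 at -0.78 ± 0.20. Of the junction and adhesion genes, PKP3 and OCLN fell, and NECTIN2 was not called at -0.58 ± 0.26.

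Members tied to vesicles, the cytoskeleton and neurons had mixed calls. SYBU, syntabulin of axonal transport (1.57 ± 0.15), and RUNDC3A (2.77 ± 0.18) rose, while PALM, paralemmin of the plasma membrane (0.15 ± 0.24), and MLPH (0.08 ± 0.23) were not called. The smallest called changes, those of RYR2 and of ZNF648 at -0.48 ± 0.16, lost their call when a single library was left out. RYR2 did so without knockout replicate 1 before differentiation (adjusted p = 0.0669), and ZNF648 without knockout replicate 3 before or knockout replicate 2 after (adjusted p up to 0.0673). All other calls in knockout cells held in every fit with 1 library left out.

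Of the noncoding members, AC104071.1, a lincRNA, was the highest per length at 11.9 RPKM in knockout and 1.15 RPKM in control cells. It measured 14.2, 10.5 and 12.3 CPM in knockout and 0.479, 1.46 and 0.952 CPM in control cells after, and 1.90, 2.33 and 1.69 CPM in knockout and 0.383, 0.569 and 0.305 CPM in control cells before. PURPL, a lincRNA known as a p53-induced transcript, measured 5.67, 7.36 and 5.74 CPM in knockout and 0.0958, 0.219 and 0.529 CPM in control cells after, and 5.05, 4.95 and 5.54 CPM in knockout and 0.383, 0.925 and 0.915 CPM in control cells before. AC009299.2, a processed pseudogene overlapping PSMD14, and AC021087.3 reached 3.78 and 3.50 RPKM in knockout cells. AC008568.1 measured 0.206, 0.0981 and 0.261 CPM after and 4.32, 3.92 and 6.76 CPM before in knockout cells. Reads of a processed pseudogene may come from its parent gene, so the value of AC009299.2 is uncertain.

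The stage change was also measured in control cells, where the members are near the limit of detection. There 19 were called higher, 4 lower and 21 neither after against before, beside 21.5% and 22.3% of all genes, 43.8% in all. SMOX held 41 counts over the 3 control libraries after and 0 before, and THBD 24 and 0. Set against a floor of 3 counts over the group, these were 13.96-fold and 8.17-fold higher after. MLPH held 11 and 0 counts, 3.75-fold higher against that floor, with an exact 95% lower limit of 2.56. PAQR9-AS1 held 25 and 1, a ratio of 25.5 with an exact 95% interval of 4.18 to 1049. The 4 called lower were ALCAM (6 and 48 counts, log2 change -2.83 ± 0.48), AC008568.1 (3 and 18 counts, ratio 0.170, interval 0.0321 to 0.583), PURPL (9 and 26 counts, adjusted p = 0.0336) and RYR2 (-0.62 ± 0.23). PURPL overlapped between the stages, and without control replicate 1 or control replicate 2 after differentiation 1 of the 4 was called, and without control replicate 2 before it 2 were.

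Stage changes in knockout and in control cells come from separate libraries. Their signs were the same for 28 of the 44 members (63.6%) and for 79.4% of all tested genes, and for 18 of the 22 members with at least 20 control counts. Across the 44 members the 2 log2 changes had a Pearson r of 0.58 and a Spearman rho of 0.53, against 0.80 and 0.76 across all tested genes. EPHA3, with 0 control counts, has no sign in control cells and was counted as unlike among the 44. The 6 members with a difference built in by the low-count filter are in these counts and correlations too. Genes are not independent replicates, and these values are a description.

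Whether the stage change itself differed between knockout and control cells was fitted as an interaction. Its adjusted p-values in members are a description, since the choice of members used both stages. The stage change was called different for 10 of the 44 members, against 13% of all tested genes. In 3 it was more positive in knockout cells and in 7 more negative, against 6.28% and 6.68% of all tested genes. With library sizes in place of TMM factors, 2 and 10 members were called, and 644 and 2146 of all genes in place of 1079 and 1148. ARG1 had the difference with the smallest adjusted p, 2.49 ± 0.24 on the log2 scale (adjusted p = 6.92e-06): it rose by 3.21 in knockout and by 0.73 ± 0.20 in control cells. ZNF648 went opposite ways, with -0.48 in knockout cells and 2.55 ± 0.57 in control cells, where it held 24 counts after and 4 before, a difference of -3.02 ± 0.58 (adjusted p = 0.00245). Both differences stayed called in every alternative fit, though the rise of ARG1 in control cells alone was not called without control replicate 1 after differentiation (adjusted p = 0.0796).

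Several members lay next to each other, so their values are not independent. CYGB and PRCD on chromosome 17 overlap on opposite strands by 23590 bases, PAQR9 and PAQR9-AS1 on chromosome 3 by 3033 bases. The counting command gives no strand option, so reads from overlapping exons of genes on opposite strands cannot be told apart. PAQR9-AS1 shares 29.2% of its exon bases with other genes, CYGB 18.7%, and the other 11 members with any sharing less. PAQR9-AS1 measured 7.12, 6.48 and 8.09 CPM in knockout and 0.671, 0.876 and 0.635 CPM in control cells after, and 0.512, 0.187 and 0.563 CPM in knockout and 0, 0 and 0.102 CPM in control cells before, and its log2 stage change in knockout cells of 4.22 lay close to the 4.03 of PAQR9. PRCD, with a ratio of 22.2, measured 2.37, 1.57 and 2.87 CPM after and 8.41, 6.54 and 5.91 CPM before in knockout cells, and fell together with CYGB.

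ZNF648 and the lincRNA AL355482.1 on chromosome 1 lie 964 bases apart on the same strand, and LRRC14B and the sense-overlapping RNA AC021087.3 on chromosome 5 lie 424 bases apart. AL355482.1 measured 3.09, 3.34 and 3.52 CPM after and 3.80, 4.02 and 4.51 CPM before in knockout cells, beside at most 0.288 CPM in any control library. LRRC14B, a leucine-rich repeat protein, measured 2.27, 2.45 and 3.39 CPM in knockout and 0.479, 0.511 and 0 CPM in control cells after, and 3.29, 3.92 and 3.19 CPM in knockout and 0.0958, 0.356 and 0.102 CPM in control cells before. AC021087.3 measured 0.928, 1.57 and 2.48 CPM after and 1.90, 2.24 and 2.72 CPM before in knockout cells. None of these 3 was called with stage in knockout cells.

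The nearest tested genes that were not members, within 100 kb on either side or overlapping, were compared between knockout and control cells. There were 49 such neighbours of 37 members. Some averaged at most 0.585 CPM in both control groups and passed the low-count filter through knockout cells, so a higher call was built in for these. They include B4GALNT4, KNDC1, AC021074.2, Z98949.1, ENSG00000280065.1, RUNDC3A-AS1 and ENSG00000223401.1. The counts of neighbours called higher, and their shares beside those of all genes, are thus a description. After differentiation 16 of the 49 were called higher (32.7%) and 9 lower (18.4%), beside 16.8% and 16.3% of all tested genes. Before it 12 were called higher (24.5%) and 0 lower, beside 9.07% and 8.15%. At an unadjusted p under 0.05, 4 of the 49 were lower before, DESeq2 called 0, and within 1 Mb 5 of 76 were lower and 16 higher. Without the neighbours that overlap a member, 12 of 42 were higher and 7 lower after, and 11 higher and 0 lower before. With library sizes only, 12 were higher and 14 lower after, and 7 higher and 1 lower before. Without control replicate 1 before differentiation 7 were higher before, and without knockout replicate 2 after differentiation 5 were lower after.

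**Figure D5:**
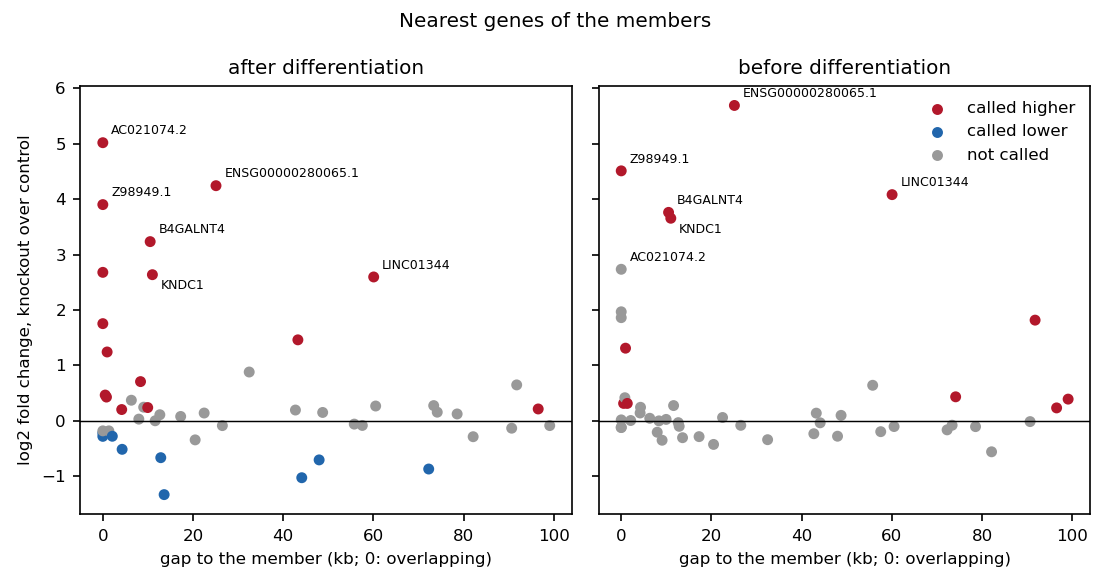
Log2 fold change, knockout over control (y axis), of the 49 nearest tested genes that are not members, against their gap to the member in kb (x axis, 0 for overlapping genes), after differentiation on the left and before it on the right. Colours give the edgeR call at adjusted p under 0.05. After differentiation 16 were called higher and 9 lower, and before it 12 higher and 0 lower, LINC01344 among the highest at both stages. For some, a higher call was built in by the low-count filter.

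Before differentiation 37 of the 49 neighbours were not called, and a few changed as much as members. LINC01344, 60.1 kb from AL355482.1 and left out of the members by its symbol, averaged 19.7 CPM in knockout and 3.67 CPM in control cells after, and 22.1 CPM in knockout and 1.35 CPM in control cells before, with log2 fold changes of 2.60 ± 0.17 and 4.08 ± 0.20 (adjusted p = 3.99e-09 and 2.89e-10). KNDC1, a guanine nucleotide exchange factor 11.0 kb from VENTX, averaged 3.06 CPM in knockout and 0.509 CPM in control cells after, and 1.94 CPM in knockout and 0.145 CPM in control cells before. B4GALNT4, a glycosyltransferase 10.5 kb from PKP3, averaged 0.868 CPM in knockout and 0.0839 CPM in control cells after, and 1.31 CPM in knockout and 0.0896 CPM in control cells before. Beside MYO18B, the overlapping Z98949.1 and ENSG00000280065.1, 25.1 kb away, averaged 1.32 and 2.76 CPM in knockout cells after differentiation. In every other group they averaged at most 0.574 CPM. The low-count filter thus built a higher call in, and these are values with no test. SLC25A39, a mitochondrial carrier of glutathione next to RUNDC3A, averaged 183 CPM in knockout and 85.5 CPM in control cells after, and 45.7 CPM in knockout and 18.8 CPM in control cells before. Others were lower in knockout cells after differentiation: ENPP3, 44.1 kb from ARG1, averaged 52.2 CPM in knockout and 119 CPM in control cells after differentiation (-1.03 ± 0.07), and GRK3, 12.8 kb from MYO18B, 31.9 CPM in knockout and 56.4 CPM in control cells (-0.66 ± 0.07).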

How the data were processed

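RNA from HUDEP-2 cells was extracted with mirVana and made into libraries with the TruSeq Stranded Total RNA kit with Ribo-Zero Globin, per the labels' protocols. The deposited values are raw read counts per gene, made by the authors with featureCounts 1.4.6-p4 on GENCODE 22 per the file headers; the submitters' processing notes name Trimmomatic, FastQC, Subread 1.6.2, featureCounts 1.2.6 and edgeR 3.18.1. No strand option appears in the header, so sense and antisense reads may be mixed. Symbols and gene types came from GENCODE 29 for 56753 of 60483 genes, and 3730 had none.

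CPM was computed from the column sums. RPKM divides the mean CPM by the file's exon length. Tests used edgeR 4.0.16 (R 4.3.3, limma 3.58.1): a quasi-likelihood fit with 4 group means over 12 libraries, TMM factors, filterByExpr with a minimum count of 10 (17175 genes kept) and Benjamini-Hochberg adjustment over all of them, two-sided at 0.05. Standard errors are the log2 change divided by the square root of F. DESeq2 1.42.0 was an alternative. Replicates of a group differed beyond counting error. Intervals and floors of 3 counts cover counting error only. The statistics were tested on simulated counts.

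The members and gene lists were chosen with earlier results of these data known. Values are named for members with the highest RPKM, the largest ratios and the largest called stage changes, for members on gene lists, near each other or at the thresholds, and for called neighbours; other members are named by role, chosen after their values were seen. Promoter windows came from RefSeq on GRCh38.p14, matched by symbol for 28 of 44 members. Values of 1 member are not reported here, though it stays in every count.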

Additional observations from a re-analysis of the deposited data

Results flagged for a closer look

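For 9 of the members described here the change with differentiation differed between knockout and control cells by the test of that difference (edgeR, Benjamini-Hochberg adjusted over all tested genes, n = 3 libraries in each of 4 groups). Each value is the log2 change after over before in knockout cells minus that in control cells. The choice of members summed both stages, so a ratio under 8 at one stage required a larger one at the other. These differences are thus not independent of the choice, and their adjusted p-values are a description. Ratios of mean CPM, after and before, were 15.7 and 3.13 for ARG1, 22.2 and 6.99 for PURPL and 3.88 and 18.9 for OCLN. The red cell enzyme ARG1 had 2.49 ± 0.24 (SE, adjusted p = 6.92e-06) and the p53-linked lincRNA PURPL 1.87 ± 0.55 (adjusted p = 0.0323). PURPL held 174 counts after and 181 before in knockout cells, against 9 and 26 in control cells.

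Another 7 had a more negative change in knockout than in control cells. The zinc finger gene ZNF648 had -3.02 ± 0.58 (adjusted p = 0.00245), the tight junction gene OCLN -2.17 ± 0.51 (adjusted p = 0.00988) and LGALS3BP -2.65 ± 0.72 (adjusted p = 0.0217). OCLN held 54 counts after and 277 before in knockout cells, against 17 and 14 in control cells, and LGALS3BP 29 and 118 against 11 and 5. C6orf141 had -2.87, with 9 counts after and 154 before in knockout cells against 7 and 12 in control cells. It passed the low-count filter only through knockout cells before differentiation, so a difference was built in and its value is a description. For PKP3 (-3.22 ± 0.90, adjusted p = 0.0257), THBD (-3.68, adjusted p = 0.0307) and MLPH (-4.79, adjusted p = 0.0204) the control libraries before differentiation held 2, 0 and 0 counts. Their fitted values depend on how counts near 0 are handled and are no bound.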

How the results depend on the processing

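No named gene's called change turned its sign under any alternative, but with library sizes only several splits turned toward lower, as given beside them. The choice of members moved with its thresholds: 131 genes at a ratio of 4, 18 at 16, and 39 to 48 with 1 library left out. It held 57 genes at a count minimum of 50 and 30 at 200. It moved with the scaling too, to 54 genes with TMM-scaled CPM. Members called with stage in knockout cells kept to 21 to 22 higher and 12 to 14 lower with 1 library left out; 12 of 31 were higher without members that share exon bases, and 22 of 44 had a higher mean CPM after. In control cells the members called lower numbered 1 to 4 with 1 library left out. For the difference these counts were 1 to 3 higher and 4 to 8 lower, and 4 lower with DESeq2; over all genes 644 were higher and 2146 lower with library sizes only. Neighbours called before numbered 7 to 12 higher and 0 to 1 lower with 1 library left out, 7 higher and 1 lower with library sizes only, 1 lower with the replicate block and 5 lower within 1 Mb. Neighbours called lower after numbered 5 to 9 with 1 library left out and 14 with library sizes only. Of the differences described, those of ARG1 and ZNF648 were called throughout; C6orf141 lost its call in 8 alternatives, THBD in 7, PURPL in 5, PKP3 and LGALS3BP in 3 each, MLPH in 2 and OCLN in 1. The cause of these changes was not tested. Without control replicate 2 before differentiation the control change of SLC30A10 was 5.99 in place of 2.99 and that of PKP3 4.94 in place of 2.44, and the difference for PKP3 -5.71. Without control replicate 1 before it MYO18B in control cells was 5.11 in place of 3.33. Same-numbered libraries correlated above 0.1 in 11 of 18 pairs (-0.0877 to 0.508). For 2 of 12 libraries the best partner in every other group had their own number. Whether the numbers pair the samples cannot be told from these values, and the main fit did not use them. With the replicate block 15 members were lower with stage in knockout cells in place of 13, and no named call was lost. Members with 0 to 3 counts in a control group have no usable fold there.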

Other observations

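Stage calls were also counted by promoter CpG content, as a description. Among all tested genes 28% were called higher and 27.7% lower after differentiation in knockout cells. Of the 14 windows with CpG observed over expected above 0.6, 6 belonged to members called higher, 5 to members called lower and 3 to members not called after differentiation in knockout cells. Of the 14 windows at or under 0.6 the counts were the same, 6, 5 and 3. Of the 8 windows with AGATAA, 4 belonged to members called higher, 2 to members called lower and 2 to members not called. For PAQR9-AS1, LRRK2 and ALCAM above 0.6, and C6orf141 and EML1 at or under it, the low-count filter built a difference in. EML1 is also among the 8.

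Gene lists with no member were also read between knockout and control cells. Beside them, 16.8% of all tested genes were called higher and 16.3% lower after differentiation, and 9.07% and 8.15% before it. Of 19 zinc finger and Polycomb repressors, 7 were higher and 3 lower after, and 4 higher and 0 lower before; with library sizes only, 3 were higher and 5 lower after. Of 19 interferon and retroelement sensing genes, 5 were higher and 3 lower after, and 6 higher and 2 lower before; with library sizes only, 4 were higher and 6 lower after. Of 13 imprinted genes, 3 were higher and 2 lower after, and 3 higher and 1 lower before. The rises in both of the first lists after differentiation thus depended on the scaling.

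The spread between knockout libraries, as the coefficient of variation of CPM, had a median over members of 15.6% after and 14.3% before differentiation. It reached 74.0% for C6orf141 after and 48.5% for PAQR9-AS1 before, both at low counts.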
